A study of Mus musculus with 10 samples.

Results

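The insulin-like growth factor (IGF) axis was followed through 8 genes picked by name: the ligands Igf1 and Igf2, the receptors Igf1r and Igf2r, and the binding proteins Igfbp2, Igfbp3, Igfbp4 and Igfbp5. All 8 were found among the 50559 genes counted in the files, and all 8 were also among the 29952 genes that passed the filter on low counts and were tested. RNA-seq counts of 10 mouse libraries from formalin-fixed, paraffin-embedded (FFPE) tissue were used, made from 4 MYC/SMARCA4 tumors, 3 P7 cerebella and 3 SHH medulloblastomas (SHH MB). The MYC/SMARCA4 tumors came from granule cell precursors (GCPs) of Math1-creERT2::Smarca4fl/fl pups, in which tamoxifen switches on the recombinase in cells with an active Math1 promoter. A lentivirus carrying murine Myc and GFP was added to these GCPs. The whole mixture, which could hold cells without recombination or without virus, was grafted into the cerebellum of CD1nu/nu mice, which lack T cells. Tumors 1 to 4 were labelled with ages of 112, 96, 89 and 79 days. The P7 cerebella carried the same Math1-creERT2::Smarca4fl/fl genotype, had also received 0.4 mg tamoxifen on day 3, and were taken at 7 days, so that part of their granule lineage cells may lack SMARCA4 as well. SHH MB arose in Math1-cre::Smofl/wt mice, which express an activated Smo in the Math1 lineage, and were also taken at 7 days. Age, host and graft differ between the tumors and both other groups and cannot be told apart from the genotype here.

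IGF1 and IGF2 are secreted growth factors that activate the tyrosine kinase receptor IGF1R and, through it, PI3K-AKT and MAPK signaling. IGF2R, the cation-independent mannose 6-phosphate receptor, carries IGF2 to lysosomes and has no kinase of its own. The binding proteins hold the ligands in the extracellular space and are cut by proteases that release them. Igf2 and Igf2r are imprinted in the mouse, Igf2 being transcribed mainly from the paternal copy and Igf2r, outside neurons, mainly from the maternal one. IGF signaling supports the proliferation of granule cell precursors and of SHH medulloblastoma cells.

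Total counts ranged from 5663491 to 9352109 per library, and 3 counts, used as the limit of detection, corresponded to between 0.304 and 0.737 CPM after TMM normalization (normalized CPM, counts scaled to a common library size). The 4 tumors carry different ages and came from different mice. For P7 cerebella and SHH MB the labels give only sample numbers, and where nothing states that samples came from separate animals, p-values measure only the spread between them, which may be technical. As a check of the labels, Myc was counted 614, 2043, 11342 and 8326 times in tumors 1 to 4, against 91 to 131 counts in P7 cerebella and 247 to 322 in SHH MB. Smarca4 lay at 207, 242, 135 and 236 normalized CPM in the tumors, at 219 to 280 in P7 cerebella and at 486 to 585 in SHH MB. It was lower in tumors than in SHH MB (log2 fold change −1.39, SE 0.28, adjusted p = 0.0157) and not called against P7 cerebella (−0.30, adjusted p = 0.495), and reads of host cells and of a shortened transcript would still be counted. Without SHH MB 1, 2 or 3 the Smarca4 difference was not called (adjusted p = 0.0991, 0.0824 and 0.122). Tumor 1 stood apart from the other tumors. Its summed level of 8 proliferation markers was 122 normalized CPM, against 1680, 1915 and 1788 in tumors 2 to 4, while that of 8 mature granule neuron markers was 7273, against 2704, 273 and 1423. Mitochondrial genes took 6.36% of its counts, against 2.29% to 2.94% in the other tumors and 1.25% to 1.59% in the other groups. A tissue punch holds all cells within it, and in such bulk samples fewer cells of a type and less RNA per cell cannot be told apart.

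Among the members, Igf2r and Igfbp3 rose in tumors relative to P7 cerebella, and Igf2r also relative to SHH MB. No member was called lower in either comparison in edgeR's fit of all 10 libraries under the filter used throughout. At an unadjusted p under 0.05, 1 member was lower against P7 cerebella and 0 against SHH MB, and DESeq2 called 1 and 0 and limma 0 and 0 members lower. In both, the 6 or 7 other members did not pass an adjusted p of 0.05 over all genes tested. Of all 29952 genes, 3.99% were called higher and 2.27% lower in tumors than in P7 cerebella, and 2.43% were called higher and 2.26% lower than in SHH MB. Between SHH MB and P7 cerebella, no member was called in the fit of all 10 libraries, in which 0.177% of the genes were called higher and 0.0467% lower. At an unadjusted p under 0.05 that fit had 1 member (Igf1r), and DESeq2 and limma called 0. Under a stricter rule, with an adjusted p up to 0.01 and a log2 fold change from 2.5 upwards, no member was called in any comparison, against 0.29%, 0.601% and 0.01% of all genes in the same order. With only the 15814 genes of at least 10 counts in every library, edgeR also called Igf1 and Igfbp4 lower against P7 cerebella (−1.62 and −0.80, adjusted p = 0.0179 and 0.0277) and Igfbp4 lower against SHH MB (−0.72, adjusted p = 0.0422). Of these genes 5.28% were higher and 6.52% lower against P7 cerebella, and 4.88% and 5.98% against SHH MB.

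Read by the ranges of the groups alone, 2 members lay wholly higher and 1 wholly lower in tumors than in P7 cerebella, where 10.3% and 10.7% of all genes did so, and 2 and 0 than in SHH MB, beside 7.83% and 8.3%. Between SHH MB and P7 cerebella 1 member was wholly higher and 2 were wholly lower in SHH MB, beside 17.8% and 19% of all genes.

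**Figure D1:**
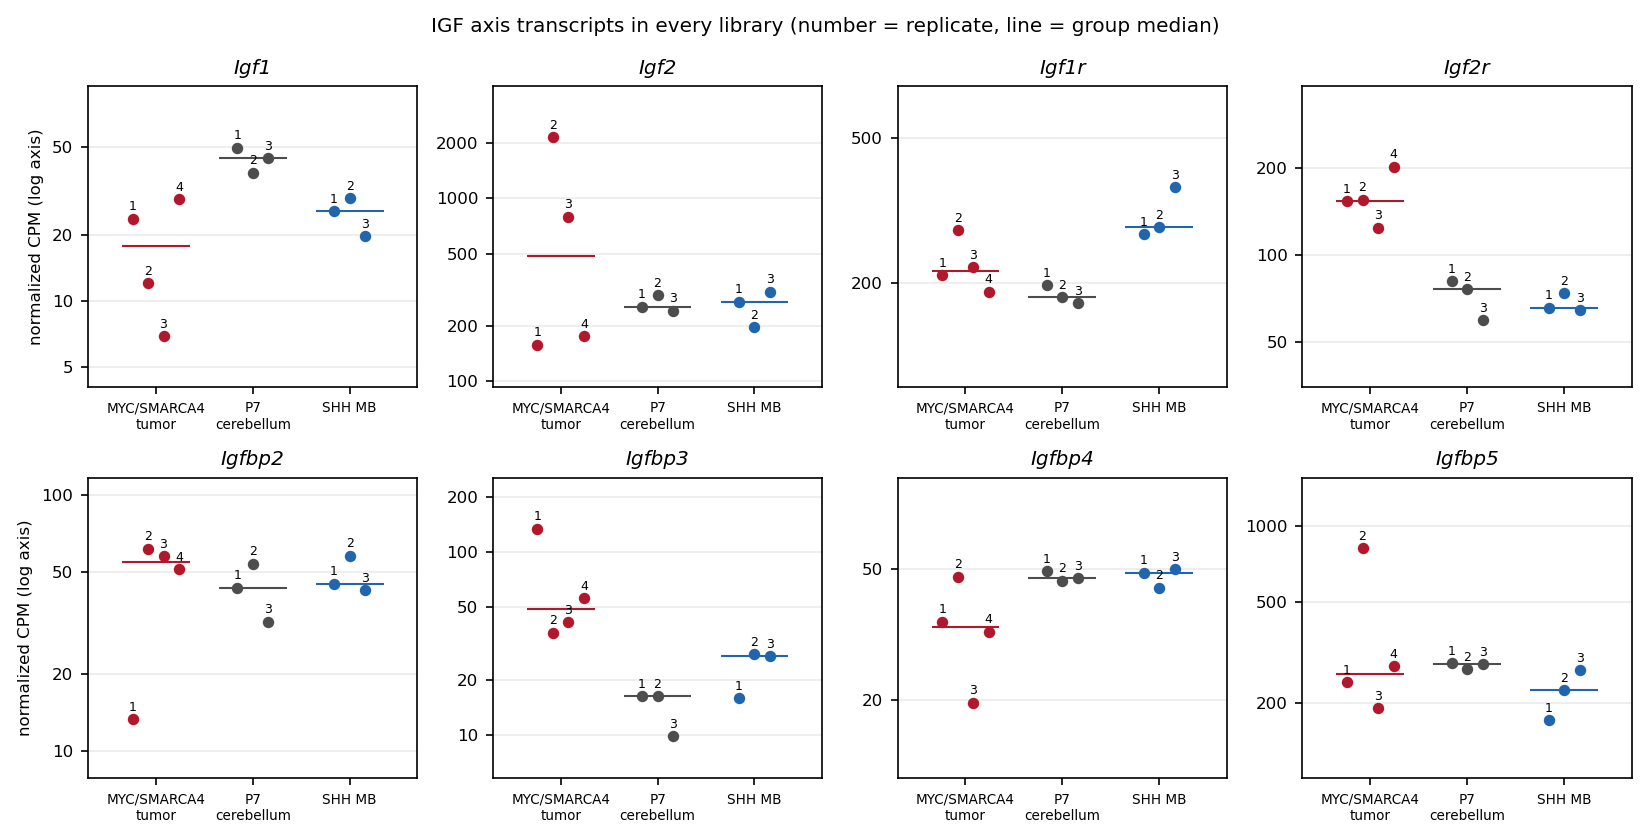
Normalized CPM of the 8 IGF axis genes (log axis) in each library of MYC/SMARCA4 tumors, P7 cerebella and SHH MB, with the replicate number beside each point and a line at the group median. Igf2r and Igfbp3 of all 4 tumors lie above all other libraries, whereas Igf2 reaches 2167 in tumor 2 and 796 in tumor 3 but only 159 and 177 in tumors 1 and 4.

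Igf2, the main fetal growth factor of the axis, varied more among the tumors than any other member. The gene lies on chromosome 7 (GRCm39 chr7:142204503-142220694, minus strand). Its highest tumor had 13.7 times the level of its lowest. The values were 159, 2167, 796 and 177 normalized CPM in tumors 1 to 4. In P7 cerebella it was 256, 297 and 244, and in SHH MB 273, 198 and 309. Tumors 2 and 3 thus lay above every library of the other groups and tumors 1 and 4 below all of them. The log2 fold change between tumors and P7 cerebella was 1.63 (SE 0.74, 95% confidence interval 0.03 to 3.24) with an adjusted p of 0.19, and that between tumors and SHH MB was 1.67 (SE 0.74, adjusted p = 0.234). Neither passed the test, and without tumor 2 the 2 values were 0.51 and 0.54. Between SHH MB and P7 cerebella the fitted difference was −0.03 (adjusted p = 0.996), with an interval from −1.66 to 1.60 in the fit that includes the tumors.

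Igf1 is the ligand that acts mainly after birth, and its level was 23.6, 12, 6.94 and 28.9 normalized CPM in tumors 1 to 4 (GRCm39 chr10:87693642-87772904, plus strand). P7 cerebella held 49.6, 38.2 and 44.4, and SHH MB 25.6, 29.3 and 19.7. All 4 tumors and all 3 SHH MB lay below all 3 P7 cerebella, and tumors and SHH MB overlapped. The log2 fold change of tumors against P7 cerebella was −1.31 (SE 0.40, interval −2.17 to −0.44) and the adjusted p 0.0708. This p passed the threshold without tumor 1 (−1.56, adjusted p = 0.0149), without tumor 3 (−1.22, adjusted p = 0.0127) and without tumor 4 (−1.80, adjusted p = 0.021), and was 0.156 without tumor 2. With DESeq2 it was 0.0422 (−1.25). Against SHH MB the difference was −0.48 (SE 0.40, adjusted p = 0.547). The summed level of 10 microglia and macrophage markers, cells that can make IGF1, was 195, 122, 64.4 and 166 normalized CPM in tumors 1 to 4, 87.6 to 93.9 in P7 cerebella and 59.3 to 92.2 in SHH MB, and its part in the Igf1 values was not tested.

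The ratio of the ligands within a library does not depend on library size. Igf2 counts exceeded Igf1 counts in all 10 libraries. As log2 ratios, they were 2.74, 7.49, 6.83 and 2.61 in tumors 1 to 4, 2.36, 2.96 and 2.45 in P7 cerebella, and 3.41, 2.76 and 3.96 in SHH MB. Tumors 2 and 3 stood far above the rest, and tumors 1 and 4 lay within the range of the P7 cerebella. The mean was 4.92 ± 2.60 (SD, n = 4) in tumors and 2.59 ± 0.32 (SD, n = 3) in P7 cerebella (two-sided exact permutation test, p = 0.23, Benjamini-Hochberg adjusted over 6 ratio tests 0.27). SHH MB had a mean of 3.38 ± 0.60 (SD, n = 3), with an exact permutation p of 0.57 against tumors and 0.2 against P7 cerebella (adjusted 0.57 and 0.27).

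Around Igf2 lies an imprinted region, in which the noncoding RNA H19 is transcribed from the maternal copy, 70545 bases from Igf2 (GRCm39 chr7:142129262-142133957, minus strand). H19 reached 63.1, 2947, 801 and 166 normalized CPM in tumors 1 to 4. In P7 cerebella it was 26.7, 54.5 and 42, and in SHH MB 69.3, 58.7 and 98. All tumors lay above all P7 cerebella, whereas tumor 1 lay within the range of SHH MB. H19 rose against P7 cerebella (log2 fold change 4.60, SE 1.08, adjusted p = 0.0291), and without tumor 2 the value was 3.07 with an adjusted p of 0.0481. This call was lost without any 1 of the 3 P7 cerebella (adjusted p = 0.146 to 0.165) and without SHH MB 1 or 2 (0.0518 and 0.0507). Against SHH MB, H19 had a log2 fold change of 3.72 and an adjusted p of 0.0606, which passed the threshold without tumor 1 (0.00562), tumor 3 (0.0337) or tumor 4 (0.0457).

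H19 and Igf2 did not keep the same proportion in the 3 groups. The ratio of H19 to Igf2 counts was 0.398, 1.36, 1.01 and 0.937 in tumors 1 to 4, 0.105, 0.183 and 0.173 in P7 cerebella, and 0.254, 0.296 and 0.318 in SHH MB. These ratios were added after H19 was seen and are given as a description without a test. Igf2os, a noncoding transcript opposite to Igf2, had 1.72, 27.3, 26.5 and 3.51 normalized CPM in tumors 1 to 4, 3.55 to 7.25 in P7 cerebella and 5.4 to 7.83 in SHH MB. Tumors 2 and 3 were again the 2 high libraries. Whether the reads were counted by strand is not given in the sources used here, so reads of Igf2 and Igf2os where they overlap cannot be told apart. Choroid plexus and meninges are known sites of Igf2 transcription. The summed level of 11 choroid plexus markers was 101, 64.6, 62 and 45.5 in tumors 1 to 4, below 705 to 1337 in P7 cerebella and 318 to 1455 in SHH MB, and Ttr, its most abundant marker, was between 0.178 and 3.05 normalized CPM in the tumors and at 228 or more in all other libraries. The summed level of 9 meninges and fibroblast markers was 261, 374, 117 and 414 in tumors 1 to 4, 349 to 392 in P7 cerebella and 318 to 427 in SHH MB. Tumors 2 and 3, with the most Igf2, lay within or below the range of the P7 cerebella for both sums. The meninges sum is weighted to collagens such as Col1a1, at 31.2 to 112 in tumors and 109 to 123 in P7 cerebella. Of its 9 genes, 4 were fitted higher and 5 lower against P7 cerebella, 1 being called higher, beside 3.99% of all genes. Ogn was at 13.8 to 40.2 in tumors and 7.64 to 10.9 in P7 cerebella. The highest tumor values of Aldh1a2 and Foxc1 (40.2 and 28.4) also lay above every P7 cerebellum. The part of these cells in the Igf2 values was not tested.

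**Figure D2:**
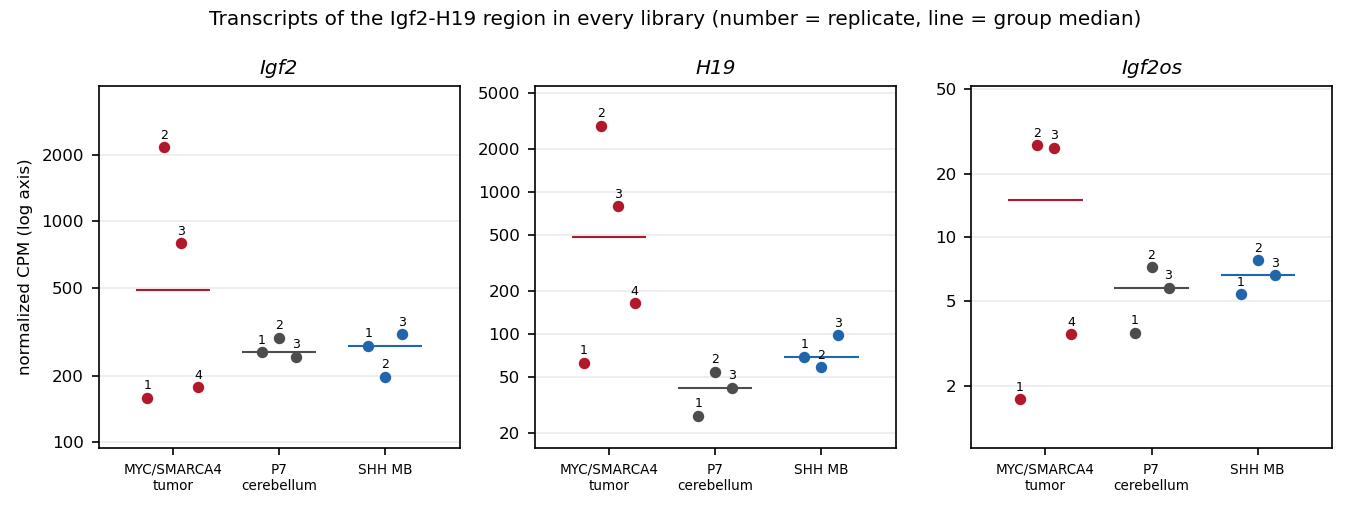
Normalized CPM (log axis) of Igf2, H19 and Igf2os in each library, with the replicate number beside each point and a line at the group median. Tumors 2 and 3 are the highest libraries for all 3 transcripts, with 2947 and 801 for H19.

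Igf2r was the only member called against both other groups in the fit of all libraries. It lies on chromosome 17 (GRCm39 chr17:12901293-12988614, minus strand) and had 153, 155, 124 and 202 normalized CPM in tumors 1 to 4. P7 cerebella held 81.2, 76 and 59.4, and SHH MB 65.7, 73.5 and 64.5. The lowest tumor lay above the highest library of both other groups. Igf2r was higher in tumors by a log2 fold change of 1.14 against P7 cerebella (SE 0.26, interval 0.58 to 1.69, adjusted p = 0.0246) and of 1.22 against SHH MB (SE 0.26, interval 0.67 to 1.78, adjusted p = 0.0192), which is 2.2-fold and 2.34-fold. The 2 comparisons share the 4 tumors. Between SHH MB and P7 cerebella the difference was −0.09 (adjusted p = 0.962, interval −0.67 to 0.49).

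The size of the Igf2r difference depended little on single libraries, but its call did. Against P7 cerebella the log2 fold change stayed between 0.93 and 1.16 when any 1 library was left out. Its adjusted p was 0.0581 without tumor 4, 0.102, 0.14 and 0.165 without P7 cerebellum 1, 2 or 3, and 0.0618, 0.0611 and 0.0604 without SHH MB 1, 2 or 3. Against SHH MB the call was lost without SHH MB 1, 2 or 3 (0.152, 0.117 and 0.166). In fits of only the 2 groups compared the values were 1.03 (adjusted p = 0.115) and 1.15 (adjusted p = 0.0825). Airn, the noncoding RNA opposite to Igf2r that silences the paternal copy outside neurons, was at 13.5, 10.2, 4.3 and 6.53 normalized CPM in tumors 1 to 4, at 4.11 to 4.81 in P7 cerebella and at 7.01 to 9.44 in SHH MB. It did not pass the test in either tumor comparison (adjusted p = 0.155 and 0.891), and where it overlaps Igf2r its reads cannot be told apart from those of Igf2r.

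The promoter windows of both called members are shown here because MYC binds the E-box CACGTG, and Igfbp2, which did not pass the test, is set beside them for comparison. Each window runs from 250 bases before to 50 bases after a transcription start of RefSeq. The letters come from a RefSeq table of build GRCm38.p6 and matched GRCm39 at 1 place each, namely chr17:12988544-12988843 (minus strand) for Igf2r, chr11:7163874-7164173 (minus strand) for Igfbp3 and chr1:72863389-72863688 (plus strand) for the first window of Igfbp2. They are written from 5′ to 3′ along the gene, with matches to CACGTG in capitals.
Igf2r: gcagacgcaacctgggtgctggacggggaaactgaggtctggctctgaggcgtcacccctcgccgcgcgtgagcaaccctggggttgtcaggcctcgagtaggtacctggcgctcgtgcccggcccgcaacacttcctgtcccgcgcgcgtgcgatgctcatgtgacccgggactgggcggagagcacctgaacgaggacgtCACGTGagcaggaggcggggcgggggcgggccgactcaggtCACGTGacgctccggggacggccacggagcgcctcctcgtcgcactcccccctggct
Igfbp3: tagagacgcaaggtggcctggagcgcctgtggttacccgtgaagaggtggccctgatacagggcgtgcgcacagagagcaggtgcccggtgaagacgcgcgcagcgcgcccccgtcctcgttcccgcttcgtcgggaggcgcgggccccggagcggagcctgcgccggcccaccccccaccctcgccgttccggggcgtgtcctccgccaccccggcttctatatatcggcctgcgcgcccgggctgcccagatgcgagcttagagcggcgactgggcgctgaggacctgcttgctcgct
Igfbp2: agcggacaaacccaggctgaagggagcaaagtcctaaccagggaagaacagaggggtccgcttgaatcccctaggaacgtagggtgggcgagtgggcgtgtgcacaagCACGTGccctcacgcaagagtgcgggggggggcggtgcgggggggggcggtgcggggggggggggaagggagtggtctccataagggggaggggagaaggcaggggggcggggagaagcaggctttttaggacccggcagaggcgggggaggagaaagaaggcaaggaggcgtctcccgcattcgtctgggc
The motif reads the same on both strands. It was found 2 times in the Igf2r window, 1 time in the Igfbp2 window and in no other window of the 8 members, while 7.15% of 32851 windows of 27025 genes hold it. The motif GGGCGG, searched on both strands, was found 3 times in the Igf2r window, 3 times in the Igfbp2 window and 0 times in that of Igfbp3, and 35.7% of all windows hold it. The GLI motif GACCACCCA was in no member's window and in 0.253% of all windows. Igf2r and Igfbp3 thus had none of these motifs in common, and a match is only a match of letters.

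Igf1r, the signaling receptor, differed less between groups (GRCm39 chr7:67601518-67883416, plus strand). Its level was 210, 279, 221 and 189 normalized CPM in tumors 1 to 4, 197, 183 and 176 in P7 cerebella, and 272, 285 and 366 in SHH MB. The tumors overlapped with both other groups, while all SHH MB lay above all P7 cerebella. The log2 fold change was 0.28 (SE 0.26, interval −0.28 to 0.83, adjusted p = 0.49) for tumors against P7 cerebella and −0.45 (SE 0.25, adjusted p = 0.349) for tumors against SHH MB. For SHH MB against P7 cerebella it was 0.73 (SE 0.27, adjusted p = 0.454) in the fit of all libraries and 0.75 (adjusted p = 3.54e-05) in the fit of only these 2 groups.

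Set against each other, the 2 receptors separated all 3 groups. The log2 ratio of Igf1r to Igf2r counts was 0.45, 0.85, 0.83 and −0.10 in tumors 1 to 4, 1.28, 1.27 and 1.57 in P7 cerebella, and 2.05, 1.96 and 2.5 in SHH MB. No library of one group reached the range of another, with tumors lowest and SHH MB highest. The mean difference was −0.86 between tumors and P7 cerebella and −1.66 between tumors and SHH MB, and the two-sided exact permutation p was 0.057 in both, the smallest that 4 against 3 libraries allow (adjusted over 6 ratio tests 0.17). SHH MB exceeded P7 cerebella by 0.80, with an exact permutation p of 0.1, the smallest possible for 3 against 3 (adjusted 0.2). A p below 0.05 could not be reached in this design.

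**Figure D3:**
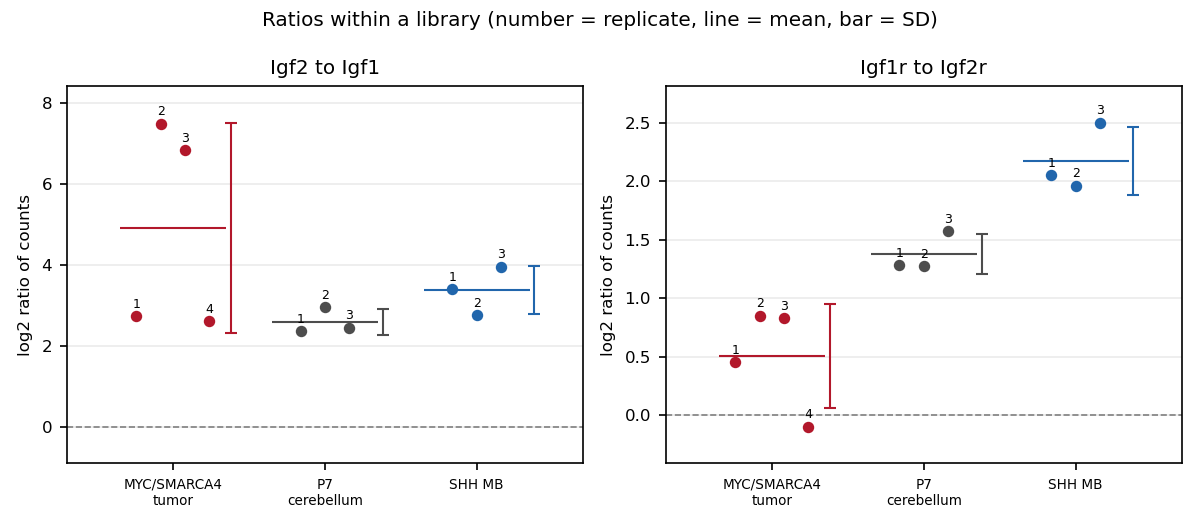
Log2 ratio of counts within each library, Igf2 to Igf1 on the left and Igf1r to Igf2r on the right, with the replicate number beside each point, a line at the group mean and a bar for the SD. For the receptors the tumors end at 0.85, the P7 cerebella run from 1.27 to 1.57 and the SHH MB start at 1.96.

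Igfbp3, the main IGF carrier of the blood and also a p53-induced gene, was the member with the largest called difference (GRCm39 chr11:7156086-7164179, minus strand). It had 134, 36.2, 41.4 and 56.1 normalized CPM in tumors 1 to 4. P7 cerebella held 16.3, 16.3 and 9.9, and SHH MB 16, 27.7 and 27. All tumors lay above all other libraries, and tumor 1, the library with few proliferation markers, was the highest. The log2 fold change against P7 cerebella was 2.23 (SE 0.46, interval 1.23 to 3.23, adjusted p = 0.0184), a 4.69-fold difference. Without tumor 1 it was 1.55 (adjusted p = 0.00331), and the call was lost without P7 cerebellum 1, 2 or 3 (adjusted p = 0.0641, 0.0808 and 0.102) and in the fit of only the 2 groups (2.05, adjusted p = 0.0651).

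Against SHH MB, Igfbp3 had a log2 fold change of 1.50 (SE 0.45, interval 0.53 to 2.46) and an adjusted p of 0.0775. Leaving out tumor 3 brought this to 0.0228, and without tumor 1 the fold change was 0.79 (adjusted p = 0.106). Endothelium and mural cells also transcribe Igfbp3. The summed level of 10 endothelial markers was 414, 184, 108 and 158 in tumors 1 to 4, 202 to 221 in P7 cerebella and 195 to 239 in SHH MB, and that of 9 mural cell markers was 416, 367, 177 and 215, 230 to 246 and 286 to 309. Tumor 1 was highest for both lists and for Igfbp3. In tumors 3 and 4 both lists lay below every P7 cerebellum, while their Igfbp3 lay above all P7 cerebella. The part of these cells in the Igfbp3 values was not tested.

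Igfbp5, a binding protein that attaches to extracellular matrix, was high in 1 tumor (GRCm39 chr1:72897091-72914043, minus strand). Its level was 241, 815, 190 and 279 normalized CPM in tumors 1 to 4, 286, 271 and 284 in P7 cerebella, and 171, 224 and 269 in SHH MB. Tumor 2, which also had the most Igf2, was the only library above 286. The log2 fold change was 0.45 against P7 cerebella (SE 0.45, adjusted p = 0.526) and 0.78 against SHH MB (SE 0.45, adjusted p = 0.367), and without tumor 2 these were −0.24 and 0.10.

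Igfbp2 is a binding protein of the fetal brain and lies 5456 bases from Igfbp5, on the other strand (GRCm39 chr1:72863606-72891634). It was at 13.3, 61.8, 57.9 and 51.4 normalized CPM in tumors 1 to 4, at 43.5, 54.1 and 32.1 in P7 cerebella, and at 45.2, 58.1 and 42.7 in SHH MB. Tumor 1 lay below all other libraries and the other 3 tumors within or just above the range of the rest. The differences of 0.09 and −0.08 (adjusted p = 0.892 and 0.94) had intervals from −0.80 to 0.99 and from −0.97 to 0.82, which reach nearly as far below as above 0, and their sign depended on the processing.

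Igfbp4, which mostly restrains IGF action and is cut by the protease PAPP-A, had 34.6, 47.5, 19.6 and 32.3 normalized CPM in tumors 1 to 4 (GRCm39 chr11:98932064-98945218, plus strand). P7 cerebella were at 49.4, 46.2 and 47, and SHH MB at 48.8, 43.9 and 50.1. Tumors 1, 3 and 4 lay below all 6 other libraries and tumor 2 among them. The log2 fold change was −0.51 in both comparisons (SE 0.28, adjusted p = 0.266 and 0.34).

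**Figure D4:**
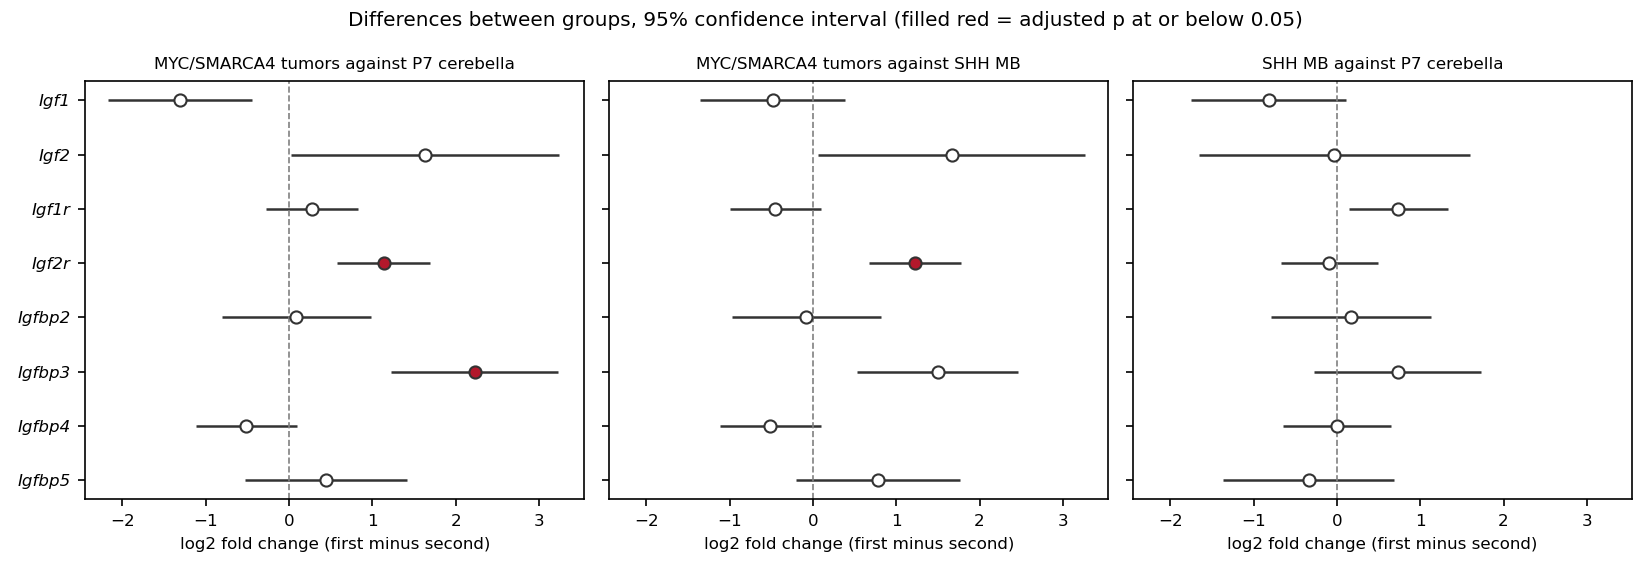
Log2 fold change of the 8 members in the 3 comparisons, from the fit of all 10 libraries, with lines for the 95% confidence interval and filled points where the adjusted p was at most 0.05. Only Igf2r and Igfbp3 (1.14 and 2.23 against P7 cerebella) and Igf2r (1.22 against SHH MB) are filled.

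To compare levels between genes, normalized CPM were divided by the exonic length of the annotated gene. Members were ranked by group mean, and Igf2 and Igfbp5 led in every group. Single tumors could differ from this order. In tumor 1 Igfbp3, at 37.6 CPM per kb, lay above Igf2 at 25.8, and Igfbp2 was at 6.38. In tumors Igf2 stood at 134 ± 153 CPM per kb (SD, n = 4) and Igfbp5 at 63.5 ± 48.5, and these did not differ beyond their spread. In P7 cerebella Igfbp5 was at 46.6 ± 1.38 (SD, n = 3) and Igf2 at 43.1 ± 4.53, and in SHH MB Igf2 was at 42.2 ± 9.12 and Igfbp5 at 36.9 ± 8.17, both pairs again within their spread. Igfbp2 came next in all groups, at 22.2 ± 10.7 in tumors, 20.8 ± 5.3 in P7 cerebella and 23.4 ± 3.97 in SHH MB. The order below it differed between groups. Igfbp3 was at 18.8 ± 12.7 and Igf2r at 16.9 ± 3.45 in tumors, ahead of Igf1r at 11.4 ± 1.96 and Igfbp4 at 7.57 ± 2.59. In P7 cerebella Igfbp3, at 3.98 ± 1.04, was the lowest member, close to Igf1 at 4.31 ± 0.559. In SHH MB Igf1r, at 15.6 ± 2.58, ranked ahead of Igfbp4 at 10.8 ± 0.736, Igf2r at 7.25 ± 0.521 and Igfbp3 at 6.62 ± 1.84. Igf1 was lowest in tumors and SHH MB, at 1.74 ± 0.992 and 2.43 ± 0.474 CPM per kb. A gene that uses only part of its annotated exons is understated on this scale.

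The comparison of SHH MB with P7 cerebella was the one most changed by the choice of libraries. In the fit of only these 6 libraries, Igf1r and Igfbp3 were higher in SHH MB (0.75 each on the log2 scale, adjusted p = 3.54e-05 and 0.00916) and Igf1 was lower (−0.80, adjusted p = 0.000378). In that fit 13.4% of 29018 genes were called higher and 10.3% lower, so that 2 of 8 and 1 of 8 members are read against a high background. Igf1r, Igf1 and Igfbp5 were the members without overlap between these groups, a count near the share of all genes, whereas SHH MB 1 with 16 normalized CPM of Igfbp3 lay among the P7 cerebella. The fold changes were nearly those of the fit of all libraries (0.73, 0.73 and −0.82), where their adjusted p was 0.454, 0.713 and 0.634.

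Beyond the members, 63 genes of the axis were followed in 5 lists, drawn up with earlier results of these data known. Of 9 other ligands, receptors and binding proteins, 7 were tested and none was called in any comparison, in edgeR's test of all 10 libraries. DESeq2 called 1 of them, lower against SHH MB, and limma 0, while at an unadjusted p under 0.05 edgeR had 1 higher and 1 lower against each of P7 cerebella and SHH MB and 0 between these. Igfbpl1, named for its similarity to the binding proteins, had 3 counts (0.737 normalized CPM) in tumor 1 and 31.4, 36.1 and 68.6 normalized CPM in tumors 2 to 4. All tumors lay below the P7 cerebella (123 to 141) and the SHH MB (159 to 187), with log2 fold changes of −1.96 and −2.30 that missed the threshold (adjusted p = 0.119 and 0.0968). A list of 6 genes held binding protein proteases, their inhibitors and Ide, the insulin-degrading enzyme. Of these, Stc2, an inhibitor of PAPP-A, rose against P7 cerebella (log2 fold change 1.99, SE 0.54, adjusted p = 0.0476). It was the 1 gene of the 6 called in that comparison, beside 3.99% of all genes called higher. Against SHH MB 0 of the 6 were called. DESeq2 called 2 higher and 1 lower against P7 cerebella and 2 higher against SHH MB, and limma 1 higher and 1 lower against P7 cerebella and 0 against SHH MB. Stc2 was at 7.12, 7.85, 11.9 and 15.5 normalized CPM in tumors 1 to 4, at 1.01, 1.95 and 5.23 in P7 cerebella and at 2.54 to 4.94 in SHH MB. The Stc2 call was kept only without tumor 1 or tumor 3, and without any other library its adjusted p lay between 0.0592 and 0.259.

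Most of the 28 adaptors and signal transducers did not pass the test. Against P7 cerebella 1 was higher and 1 lower, beside 3.99% and 2.27% of all genes. The list median was 0.39 on the log2 scale, beside −0.05 for all genes tested. The one higher was Eif4ebp1, a brake on translation controlled by mTORC1, with 2.46, 24.1, 33 and 32.2 normalized CPM in tumors 1 to 4 against 2.33 to 3.46 (2.91, adjusted p = 0.0223). Tumor 1 was the exception, at the level of the P7 cerebella. The one lower was Irs4, an adaptor of insulin and IGF receptors (−2.02, adjusted p = 0.0428), at only 1 to 14 counts per tumor and 30 to 45 per P7 cerebellum. Without tumor 4 or any 1 P7 cerebellum Eif4ebp1 was not called (adjusted p between 0.0641 and 0.138), and Irs4 kept its call only without tumor 1 or tumor 3 (otherwise 0.0691 to 0.2).

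Against SHH MB, 2 of the 28 were lower and 0 higher, beside 2.26% and 2.43% of all genes. The list median was 0.22, beside 0.01 for all genes. Irs1, the docking protein that links IGF1R to PI3K, had 91.6, 123, 45.5 and 141 normalized CPM in tumors 1 to 4 and 600, 664 and 786 in SHH MB (−2.77, SE 0.36, adjusted p = 0.00111). P7 cerebella lay between, at 206, 177 and 171. Grb10, an adaptor that restrains the same receptors and is itself imprinted, was at 38.6, 26.1, 13.5 and 45.7 in tumors, 100, 93.8 and 154 in SHH MB and 50.8 to 52.9 in P7 cerebella (−1.91 against SHH MB, SE 0.36, adjusted p = 0.0115). Without SHH MB 3 the Grb10 call was lost (−1.65, adjusted p = 0.0951), while Irs1 was called without each library in turn. All tumors were below all libraries of both other groups for both genes. Their differences against P7 cerebella, −0.88 and −0.75, were not called (adjusted p = 0.142 and 0.209). Between SHH MB and P7 cerebella none of the 28 was called in the fit of all libraries (3 at an unadjusted p under 0.05, 1 by DESeq2, 0 by limma). In the fit of only these 2 groups 10 were higher and 4 lower, beside 13.4% and 10.3% of all genes. There Irs1 was at 1.91 (adjusted p = 1.06e-11) and Grb10 at 1.17 (adjusted p = 6.74e-07).

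Of 10 genes at the Igf2 and Igf2r loci or acting on their transcripts, H19 and Igf2bp1 rose against P7 cerebella (list median 1.03). Of all genes 3.99% were called higher in this comparison. Igf2bp1, an RNA-binding protein of fetal tissue that binds Igf2 mRNA, had 10.8, 122, 125 and 272 normalized CPM in tumors 1 to 4, 10.6 to 14.7 in P7 cerebella and 49.5 to 65.1 in SHH MB (3.43 against P7 cerebella, SE 0.73, adjusted p = 0.0208). The Igf2bp1 call was lost without tumor 4 or any 1 P7 cerebellum (adjusted p between 0.0539 and 0.137). Tumor 4 had the most Igf2bp1 and little Igf2. Against SHH MB, Zfp57, a zinc finger protein that keeps imprints methylated, was lower (−1.59, SE 0.26, adjusted p = 0.00554). It was at 21.9 to 41.4 normalized CPM in tumors and 85.1 to 111 in SHH MB (list median 0.26). Zfp57 was the 1 gene of the 10 called against SHH MB, beside 2.26% of all genes called lower. Without SHH MB 3 Zfp57 was not called (−1.46, adjusted p = 0.0523). P7 cerebella were at 52.3 to 64.5, and their difference from tumors, −0.94, had an adjusted p of 0.0523.

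Among 10 other imprinted genes, 1 was higher and 2 were lower against P7 cerebella, beside 3.99% and 2.27% of all genes. The list median was 0.63. Peg10, derived from a retrotransposon, reached 64.6, 710, 312 and 1256 normalized CPM in tumors 1 to 4, against 47.4 to 76.8 in P7 cerebella and 71.2 to 84.2 in SHH MB (3.28 and 2.95, adjusted p = 0.0244 and 0.0368). Tumor 1 lay within the range of the P7 cerebella. The 2 lower genes lie in the imprinted domain that neighbours Igf2 and H19. Phlda2, of the same list and domain, was fitted higher and not called (0.46, adjusted p = 0.692). Cdkn1c, an inhibitor of cyclin-dependent kinases, was at 3.69, 10.9, 3.75 and 11.1 in tumors 1 to 4 and at 26.9 to 30.4 in P7 cerebella (−1.94, adjusted p = 0.0166). Slc22a18, a membrane transporter, was at 0.737 to 1.81 and 3.9 to 4.67, with 3 to 15 counts per tumor (−1.69, adjusted p = 0.0408). Against SHH MB, Peg10 was the 1 gene of this list called (list median 1.31), beside 2.43% of all genes called higher. The calls against P7 cerebella were lost for Cdkn1c without any 1 P7 cerebellum (adjusted p between 0.0723 and 0.0808) and for Peg10 without these or tumor 4 (0.06 to 0.158). Slc22a18 against P7 cerebella and Peg10 against SHH MB kept their calls only without tumor 1 or tumor 3, with adjusted p otherwise between 0.0649 and 0.181 and between 0.0695 and 0.178.

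**Figure D5:**
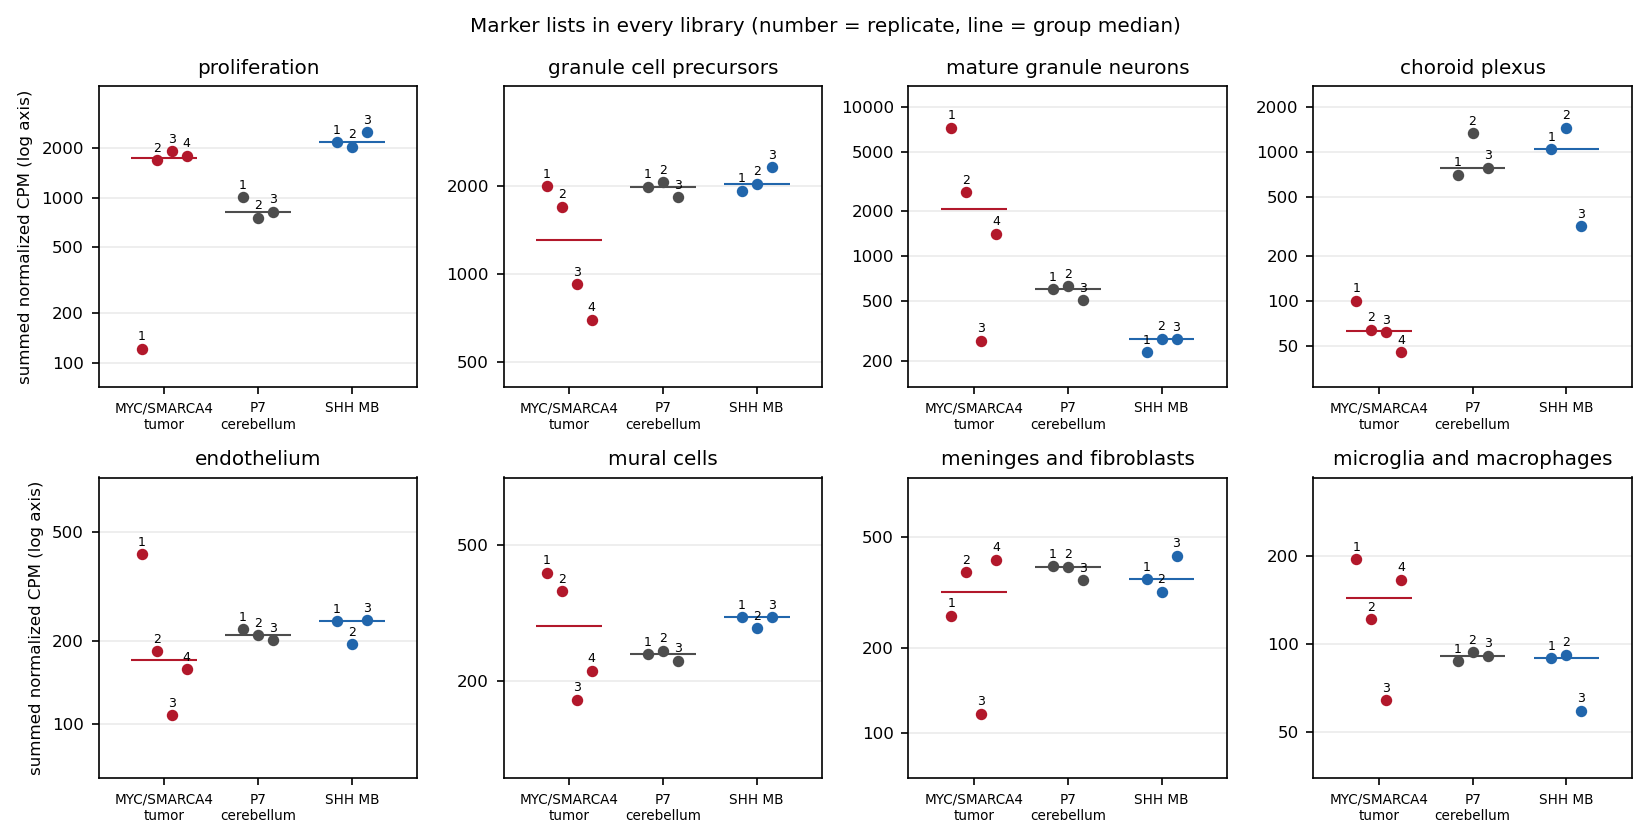
Summed normalized CPM (log axis) of 8 marker lists in each library, with the replicate number beside each point and a line at the group median. Tumor 1 is lowest for proliferation (122) and highest for mature granule neurons (7273), endothelium (414) and mural cells (416), and the choroid plexus list is at 101 or less in all tumors.

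The other marker lists showed what else the punches held. The summed level of 8 GCP markers was 2000, 1697, 919 and 697 normalized CPM in tumors 1 to 4, 1833 to 2058 in P7 cerebella and 1926 to 2313 in SHH MB. Its members differed. Barhl1, a transcription factor of the granule lineage, was at 11.1 to 17.7 in tumors, 108 to 132 in P7 cerebella and 311 to 411 in SHH MB, and was lower in tumors in both comparisons (log2 fold changes −3.16 and −4.78, adjusted p = 0.000229 and 6.28e-06). Atoh1, the gene also called Math1, ranged from 2 to 225 counts per tumor, 137 to 291 per P7 cerebellum and 629 to 980 per SHH MB, and was not called in either tumor comparison (adjusted p = 0.648 and 0.0521). Against P7 cerebella 6 of the 8 GCP markers were fitted lower and 1 of them was called, beside 2.27% of all genes called lower. Against SHH MB 5 were fitted lower, with 2 called lower and 1 higher, beside 2.26% and 2.43% of all genes. Purkinje cell markers summed to 13675, 3756, 651 and 2611 in tumors 1 to 4, 2286 to 2600 in P7 cerebella and 1056 to 1427 in SHH MB. Astrocyte and Bergmann glia markers summed to 434, 2619, 575 and 1994 in the tumors, 2184 to 2250 in P7 cerebella and 1743 to 2045 in SHH MB. Of these 8 markers, 6 lay wholly lower in tumors than in P7 cerebella, beside 10.7% of all genes. Against P7 cerebella 3 of them were called lower, beside 2.27% of all genes, and 2 were fitted higher (list median −1.46). Markers of myelinating oligodendrocytes summed to 3905, 788, 109 and 419 in the tumors, 919 to 1100 in P7 cerebella and 113 to 378 in SHH MB. Tumor 3 had the lowest and tumor 1 the highest sum of Purkinje cell, mature granule neuron and myelin markers among the tumors. Igf2, H19 and Igfbp2 were lowest among the tumors in tumor 1, whose Igfbp3 was the highest. What the differing cell makeup contributes to the members' values was not tested.

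Over the 10 libraries, the genes whose log2 CPM followed each member most closely, among 13201 genes with a mean log2 CPM of at least 3, were taken as a description. Igf2r ran closest with Cdk9 (Pearson's r 0.994), Bri3bp (0.990) and Nfs1 (0.987), and Igfbp3 with LOC118568390 (0.975), Psma6 (0.969) and Pigg (0.968). For Igf2 these included Rhobtb1 (0.950) and Trim36 (0.922), and H19 came at place 16 with 0.882. Igf1 ran with Ppdpf (0.959), Camsap3 (0.942) and Gm26782 (0.940), and Igf1r with Golim4 (0.952), Ccp110 (0.931) and Mcm9 (0.923). For the remaining binding proteins the closest genes were Dyrk2 (0.952) for Igfbp2, Ptpra (0.969) for Igfbp4 and Pigt (0.939) for Igfbp5. Among the members, Igf2r and Igfbp3 had the highest correlation (0.81) and Igf1 and Igf2 the lowest (−0.70). The libraries share groups, depth and cell makeup, so that these values say only that the levels ran alike.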

How the data were processed

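RNA of 10 mouse FFPE samples was measured, and samples were grouped by their labels. The authors depleted ribosomal RNA, prepared CORALL libraries and sequenced them as 75-bp single-end reads. According to the methods and processing notes, the authors trimmed reads with Trimmomatic 0.38.1, aligned them to GRCm39 with STAR 2.7.8a and counted them with featureCounts 2.0.1. The deposited counts are whole reads per gene without normalization. The authors also deposited log2-scale values of the variance-stabilizing transformation (VST) of DESeq2, used here only as an alternative. The annotation release and the strand setting of the counting are not given in the sources used here.

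Counts were tested with the quasi-likelihood test of edgeR 4.0.16 in R 4.3.3, with all 10 libraries in 1 fit, a mean per group, TMM factors and filterByExpr. P-values were adjusted by the Benjamini-Hochberg method over 29952 genes, and a gene was called at an adjusted p of at most 0.05. SE and 95% intervals come from this fit. Levels are normalized CPM, and log2 CPM used a prior count of 2. Ratios used counts with 0.5 added and two-sided exact permutation tests. Alternatives were DESeq2 1.42.0, limma 3.58.1 on the VST values, RLE factors, other filters, fits of only 2 groups, robust estimation, a replicate block, library sizes without 110 mitochondrial and rRNA-like genes, other added or prior counts, a stricter threshold and each library left out in turn. The fits were tested on simulated data. The intervals include the spread between samples, whereas detection limits cover counting error only.

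The 8 members and all 18 gene lists were chosen with earlier results of these data known. Genes named are the members, genes of the lists, the targeted genes and, for each member, the 3 genes of closest pattern, of which 1 is not reported here. Positions and exonic lengths are from GENCODE M39 on GRCm39, and promoter letters are from RefSeq.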

Additional observations from a re-analysis of the deposited data

Results flagged for a closer look

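Igfbp2 in tumor 1, at 3.76 log2 CPM, was the lowest of the 4 tumors, and its gap to the next tumor made up 0.88 of the range of the group, above Dixon's 95% critical value. With 11 groups of 4 values tested, chance alone flags about 5% of them. The other 3 tumors had 51.4 to 61.8 normalized CPM of Igfbp2, against 13.3 in tumor 1. In the same library the summed level of astrocyte and Bergmann glia markers was 434 normalized CPM, the lowest of all libraries. That sum is weighted to Slc1a2 (117 to 1544 in the tumors). Gfap (16.7), Aqp4 (13.2), Aldh1l1 (5.69), Gdf10 (4.86) and Hopx (1.8) were lowest among the tumors in tumor 3, whose Igfbp2 was 57.9. The proliferation markers of tumor 1 summed to 122, also the lowest of all libraries. The part of either marker list in the Igfbp2 value was not tested.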

How the results depend on the processing

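Of 19 alternatives per gene, the log2 fold change of Igf2r lay between 0.87 and 1.19 against P7 cerebella and was called in 10. The number of members called was 2 against P7 cerebella, 1 against SHH MB and 0 between SHH MB and P7 cerebella. With at least 10 counts in every library it was 4 against P7 cerebella (Igf1 and Igfbp4 in addition) and 2 against SHH MB (Igfbp4 in addition). In fits of only the 2 groups compared it was 0, 0 and 3 (Igf1, Igf1r and Igfbp3), and under the stricter threshold 0 in each. With DESeq2 it was 3 against P7 cerebella (Igf1 in addition) and 2 against SHH MB (Igfbp3 in addition). DESeq2 also called more of all genes than edgeR, 3066 higher and 1348 lower of 33016 against P7 cerebella. Against SHH MB these were 2014 and 1048 of 25606. Leaving out 1 library in turn gave 0 to 3 members against P7 cerebella and 0 to 2 against SHH MB. The number was 0 without any 1 library of the compared P7 cerebella or SHH MB. The cause of the shifts in these counts was not tested.

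Same-numbered libraries of the groups deviated together with correlations between -0.274 and 0.162, and not every library correlated best with its own number, so the numbers do not pair the samples. With the replicate block, to which tumor 4 adds nothing as the only library of its number, 0 members were called against P7 cerebella and 0 against SHH MB, and the fitted difference was -0.09 for Igfbp2 against P7 cerebella and 0.04 for Igf2 between SHH MB and P7 cerebella.

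Small differences changed sign. Igfbp2 against P7 cerebella was -0.03 with limma on VST values, -0.10 with at least 10 counts in every library and -0.13 to 0.31 with 1 library left out. With 1 library left out, Igfbp5 against P7 cerebella ranged from -0.24 to 0.57, Igfbp2 against SHH MB from -0.29 to 0.12, Igf2 between SHH MB and P7 cerebella from -0.14 to 0.14, and Igfbp4 in that comparison from -0.03 to 0.07. The last was -0.08 with at least 10 counts in every library, and Igf2 there was 0.02 with DESeq2, 0.01 with RLE factors and 0.02 without a filter. Of all single-gene values under the alternatives, 634 kept direction and side of the threshold, 103 lost and 18 gained a call, and 20 changed sign.

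Counts over all genes depended on the fit. Against P7 cerebella 1194 genes were higher and 680 lower, with DESeq2 3066 and 1348, with limma 689 and 633, in the fit of 2 groups 58 and 171, with the block 165 and 206, and with 1 library left out 35 to 3381 and 159 to 6551. Against SHH MB the 727 and 676 genes became 2014 and 1048, 387 and 603, 88 and 300, 231 and 400, and 54 to 2750 and 257 to 3979. Between SHH MB and P7 cerebella the 53 and 14 genes became 329 and 128 with DESeq2 and 3884 and 2999 in the fit of 2 groups. At 3 counts, or up to 0.737 normalized CPM, low genes such as Irs4 and Slc22a18 were near the limit of detection.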

Other observations

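In the fit of only SHH MB and P7 cerebella, in which 13.4% of the genes were called higher and 10.3% lower, 7 of 10 genes at the Igf2 and Igf2r loci or acting on their transcripts were called higher in SHH MB and 0 lower. Igf2bp1 and Igf2bp3, RNA-binding proteins of fetal tissue, were higher by 2.31 and 1.01 on the log2 scale (adjusted p = 3.32e-11 and 4.09e-06). Ctcf, an insulator protein of the Igf2 and H19 region, was higher by 0.79 (adjusted p = 2.15e-05), H19 by 0.90 (adjusted p = 0.00064) and Airn by 0.87 (adjusted p = 0.0186). Igf2 itself differed by -0.01 (adjusted p = 0.968). In edgeR's fit of all 10 libraries none of the 10 was called, while 3 had an unadjusted p under 0.05, DESeq2 called 1 higher and limma 0.

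In the same fit, 5 of 10 other imprinted genes were lower in SHH MB and 0 higher, beside 10.3% and 13.4% of all genes. These were Meg3 (-1.06), Rtl1 (-0.89), Cdkn1c (-0.74), Ndn (-0.57) and Mest (-0.55), with adjusted p between 9.51e-07 and 0.00912. In edgeR's fit of all 10 libraries 0 of the 10 were called and 0 had an unadjusted p under 0.05, and DESeq2 and limma called 0. In the fit of only 2 groups, Ide, the insulin-degrading enzyme, was higher in SHH MB by 1.41 (adjusted p = 1.07e-09). Htra1, a secreted protease that cuts binding proteins, was lower there (log2 fold change -1.16, adjusted p = 0.000148). Of the 6 genes in their list, edgeR's fit of all libraries called 0 (1 at an unadjusted p under 0.05), DESeq2 1 and limma 0. In the fit of all libraries, Purkinje cell, mature granule neuron and myelin markers had list medians of -1.83, -1.56 and -1.63 on the log2 scale between SHH MB and P7 cerebella, with none of the 8 genes of each list called there by edgeR, and their part in these values was not tested.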
